A study of Mus musculus with 24 samples.

Results

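Lysosomes digest what a cell takes in or turns over, and the 39 genes described here encode their proton pump, their hydrolases and a few of their membrane and soluble proteins. The genes were chosen by function, with earlier results of these data known. They comprise 16 subunits or accessory proteins of the vacuolar proton pump, 16 acid hydrolases, 5 membrane proteins and 2 soluble proteins that are not enzymes. On the arrays 34 of the 39 could be matched to a probe set that names a single gene, out of 17097 such genes in all. These were 13 of the 16 pump genes, 15 of the 16 hydrolases, 4 of the 5 membrane proteins and both soluble proteins. Atp6v0c, Atp6v1c1, Atp6v1g1, Neu1 and Cd63 were not matched and are not analysed here. Where a gene had several probe sets, the brightest on average across the 24 arrays stood for it, and 20 of the 34 genes had other probe sets to check it against.

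The cells were naive CD4 T cells of the mouse, sorted from spleen and peripheral lymph nodes as CD4+, CD62Lhi, CD44lo and CD25-. The mice were wild type (strain C57BL/6) or of the genotype CD4(cre)Raptor(fl/fl), here named Raptor-deficient, in which a Cre recombinase driven by the Cd4 promoter deletes the floxed part of the Raptor gene in T cells. RNA was taken from unstimulated cells or after 8 h or 24 h on plate-bound antibodies to CD3 and CD28, which gave 6 groups of 4 samples. The Cd4 promoter is active from the thymus on. A probe set for Rptor, the Raptor gene, was called lower already in unstimulated cells (-0.58, limma adjusted p = 0.00102 over all probe sets). Effects on maturation and on activation cannot be told apart here.

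The vacuolar proton pump is a rotary machine. Its V1 sector on the cytosolic side splits ATP, and its V0 sector in the membrane carries protons into the lumen, where acid hydrolases need the low pH to work. Raptor is the scaffold that makes mTOR kinase into mTORC1, a complex that is activated on the lysosomal surface in contact with the pump and which holds the transcription factors TFEB and TFE3 in the cytosol when nutrients are plentiful. TFEB and TFE3 bind a DNA motif with the core CACGTG in the promoters of many lysosomal genes.

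Because of that motif, the stretch of 150 bases before the transcription start is shown for 6 of the genes on which the results below turn and that hold the core in it, and for Grn, which was higher without Raptor at both stimulated times and holds none. The sequences are from RefSeq, build GRCm38.p6, run 5′ to 3′ toward the start on the gene's strand, and have CACGTG in capitals.
Lamp1, chr8:13159011-13159160, plus strand: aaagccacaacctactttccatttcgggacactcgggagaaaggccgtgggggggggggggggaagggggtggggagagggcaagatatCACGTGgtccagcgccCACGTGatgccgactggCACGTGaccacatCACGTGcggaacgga
Mcoln1, chr8:3500369-3500518, plus strand: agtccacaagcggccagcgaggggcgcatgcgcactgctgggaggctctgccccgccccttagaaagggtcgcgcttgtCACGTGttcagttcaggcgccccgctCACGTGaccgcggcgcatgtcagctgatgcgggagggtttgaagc
Atp6v0b, chr4:117887330-117887479, minus strand: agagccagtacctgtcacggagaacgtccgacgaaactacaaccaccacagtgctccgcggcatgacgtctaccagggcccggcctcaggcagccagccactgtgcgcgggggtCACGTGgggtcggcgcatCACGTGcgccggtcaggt
Ctsd, chr7:142387828-142387977, minus strand: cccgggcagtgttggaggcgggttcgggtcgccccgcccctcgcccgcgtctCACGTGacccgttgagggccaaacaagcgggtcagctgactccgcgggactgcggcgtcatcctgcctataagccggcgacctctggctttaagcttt
Atp6v1a, chr16:44139260-44139409, minus strand: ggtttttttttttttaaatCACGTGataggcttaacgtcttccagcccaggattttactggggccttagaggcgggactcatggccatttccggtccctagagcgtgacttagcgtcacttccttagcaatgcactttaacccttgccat
Gaa, chr11:119267813-119267962, plus strand: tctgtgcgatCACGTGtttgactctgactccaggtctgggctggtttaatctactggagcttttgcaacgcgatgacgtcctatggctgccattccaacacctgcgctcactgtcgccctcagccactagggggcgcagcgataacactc
Grn, chr11:102430357-102430506, plus strand: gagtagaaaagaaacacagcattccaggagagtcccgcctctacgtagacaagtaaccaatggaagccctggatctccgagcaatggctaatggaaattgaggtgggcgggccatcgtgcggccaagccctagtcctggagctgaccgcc

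Lamp1 held the core 4 times, at 61, 45, 28 and 15 bases before the start. Mcoln1 and Atp6v0b held it 2 times each in the printed stretch, and Ctsd, Atp6v1a and Gaa 1 time each. The start used for Atp6v1a lies inside the annotated gene, which on the minus strand begins at chr16:44139702. Its printed stretch, with the core, therefore lies within that gene. The search used the window from 250 bases before to 50 after the start. CACGTG reads the same on both strands, and longer forms of it were counted on both strands. Of the 39 genes, 32 had a window, and 13 of these (40.6%) held CACGTG, against 8.09% of 27025 genes with a window of the same length. The longer form GTCACGTG or its reverse complement CACGTGAC, which contains the core, was present in 9 of the 32 (28.1%) against 2.55% of all genes. By class, 4 of 11 pump genes, 7 of 14 hydrolases and 2 of 7 membrane or soluble protein genes held the core. A match is a property of the sequence and does not show that a factor binds there.

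Both probe sets for Rptor, the gene for Raptor, were lower in the Raptor-deficient groups at all 3 times, by 0.58 to 1.01 on the log2 scale, although for 1 of them the unstimulated difference had an adjusted p of 0.0925. The array medians lay between 5.15 and 5.29 log2 units. The spread of single arrays around their group means was largest in unstimulated Raptor-deficient replicates 1, 2 and 3, with residual SDs over all genes of 0.28, 0.222 and 0.206, against 0.119 to 0.172 in the other 21 arrays. In both groups at 24 h, replicate 1 held RNA typical of liver, with Alb (albumin) at 9.02 and 9.11 against 6.22 to 6.42 in the other 6 arrays at 24 h. All 6 measured T cell markers were above the median of all values, 5.22, in all 6 groups. Nothing in the labels says that replicates came from separate animals, so each p-value rests on how far these samples varied, which may in part be technical.

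The pump genes moved in both directions when wild-type cells were activated. At 24 h, 3 of the 6 measured V1 genes were higher than in unstimulated cells and 1 was lower, while of the 5 V0 genes 1 was higher and 3 were lower. The median log2 difference was 0.46 over the V1 genes and -0.30 over the V0 genes, against -0.03 over all genes tested. Over the whole set 10 genes were higher and 14 lower of 34, a share of 70.6% called, while 49.7% of all genes tested were called in this comparison (25.4% higher and 24.3% lower). A gene was called when limma's moderated test gave a Benjamini-Hochberg adjusted p under 0.05 over all 17097 genes. Of the 34 genes only Atp6v0a1 had means below the median of all values in every group. The shares of all genes tested, here and below, include other genes that dim and are not shares among genes of like brightness. In bulk RNA like this, fewer cells of a type and less RNA per cell cannot be told apart.

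Atp6v1a, the catalytic A subunit that binds ATP, stood at 6.5, 7.03, 6.87 and 6.71 log2 units in the 4 unstimulated wild-type samples, at 7.32, 7.23, 7.17 and 7.39 after 8 h and at 8.18, 8.16, 8.34 and 8.26 after 24 h. The 3 sets of values did not overlap and the increase at 24 h was 1.46 ± 0.11 (SE, n = 4 per group; limma adjusted p = 8.82e-12). Atp6v1h, the H subunit that regulates coupling of the sectors, rose from 5.80, 6.21, 5.82 and 5.69 to 6.86, 6.93, 6.97 and 6.97 at 8 h and 7.11, 7.15, 7.41 and 7.17 at 24 h, an increase of 1.33 ± 0.15 at 24 h (limma adjusted p = 3.77e-08). Atp6v1f, of the central rotor, rose by 0.73 at 24 h. Atp6v1d, the D subunit of the same rotor, moved the other way: it was between 11.36 and 11.57 in unstimulated wild-type samples, between 9.48 and 9.97 at 8 h and between 9.68 and 9.81 at 24 h, and fell by 1.69 at 24 h (limma adjusted p = 4.6e-13). Atp6v1b2, the B subunit that pairs with A in the ATP-splitting ring, and Atp6v1e1, of the peripheral stalk, differed by 0.11 and 0.20 at 24 h and were not called. For Atp6v1e1 the probe sets disagreed, with 2 of 4 called higher and 1 called lower.

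In the V0 sector of wild-type cells, Atp6v0a2, a form of the a subunit that carries protons, fell by 0.73 at 24 h (SE 0.14), Atp6v0d1, which joins the stalk to the membrane ring, by 0.37 (SE 0.10), and Atp6v0b, a subunit of that ring, by 0.30 (SE 0.10). Atp6v0e was the V0 gene that rose, by 0.47 (SE 0.11). Both accessory proteins fell: Atp6ap1, which is needed for assembly of the pump, by 0.50 and Atp6ap2, known also as the prorenin receptor, by 0.27. Atp6v0a1 lay below the median of all array values in every sample, between 4.33 and 5.16, and the mean of its probe sets, unlike the one used here, rose by 0.69 in wild type at 24 h (limma adjusted p = 3.15e-08). The heat map of group means shows how the classes moved.

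**Figure D1:**
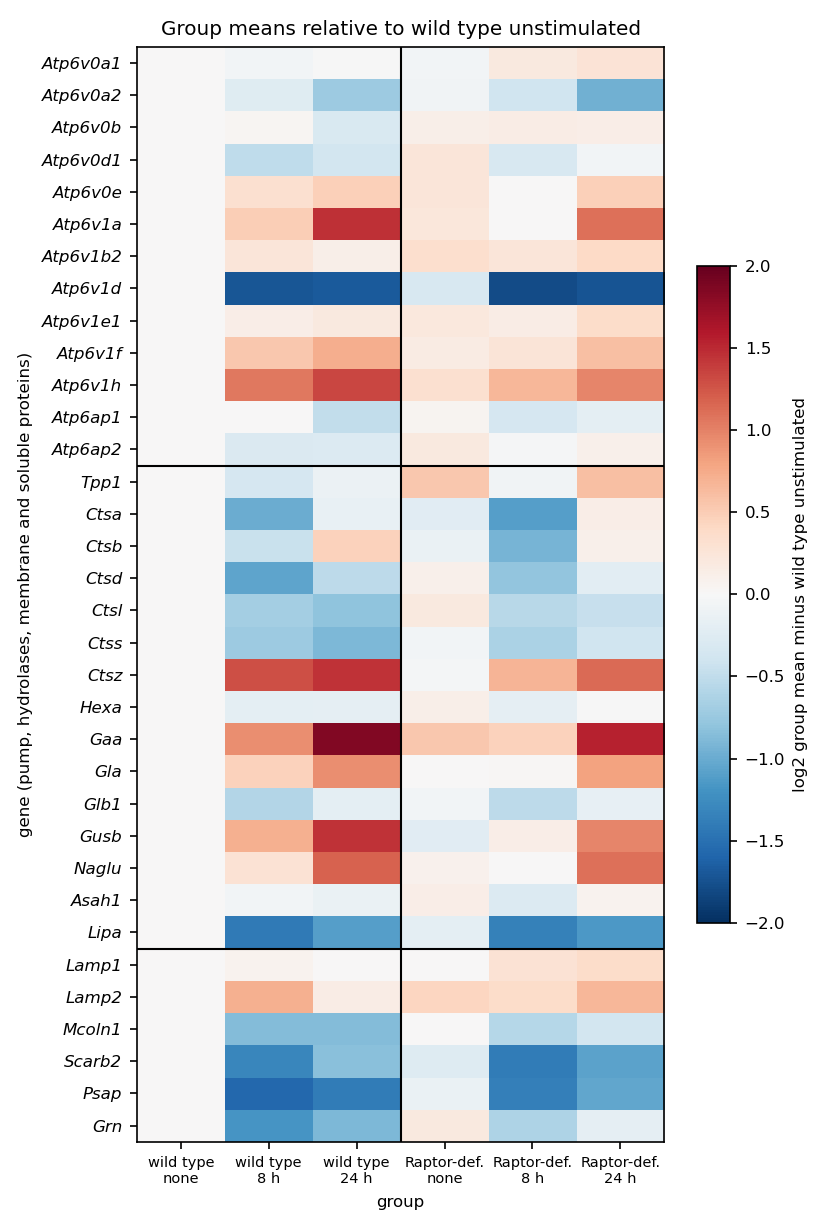
Group means of the 34 genes as log2 difference from the wild-type unstimulated mean (colour, from -2 to 2), with 1 row per gene, 1 column per group of 4 samples, and black lines between the pump, the hydrolases, and the membrane and soluble proteins. Atp6v1d, Psap, Lipa and Scarb2 are blue in all 4 stimulated groups, while Gaa, Ctsz, Gusb and Atp6v1a are red at 24 h in both genotypes.

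More hydrolases fell than rose in wild-type cells at 8 h, and several rose from 8 h to 24 h. At 8 h, 4 of 15 were higher than in unstimulated cells and 8 were lower, with a median of -0.33; over the whole set 9 were higher and 15 lower (70.6% called, against 39.7% of all genes tested). From 8 h to 24 h, 9 of 15 hydrolases were higher and 0 lower by limma (0 also at an unadjusted p under 0.05), with a median of 0.39. All 34 genes gave 11 higher and 4 lower. In that comparison 28.3% of all genes were called, 17.4% higher and 11% lower. The Lipa call (limma adjusted p = 0.0494) was lost on leaving out any of 14 single arrays (0.0525 to 0.168). Those of Gla and Scarb2 were lost for 3 and 6 arrays (0.0577 to 0.111 and 0.0559 to 0.147). At 24 h against unstimulated cells 6 hydrolases were higher and 4 lower. The comparisons of 8 h and 24 h with unstimulated cells share the unstimulated samples, and that of 24 h with 8 h shares the 8 h samples.

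The 6 hydrolases that were higher at 24 h in wild type were Gaa, which breaks down glycogen and rose by 1.86 (SE 0.14), Ctsz, a carboxypeptidase (1.45), Gusb, the beta-glucuronidase (1.45), Naglu, which acts on heparan sulfate (1.17), Gla, the alpha-galactosidase (0.92), and Ctsb, a cysteine protease (0.46). Ctsb first fell by 0.45 at 8 h, and its probe sets disagreed at 24 h, with 2 of 4 called higher and 2 called lower. Naglu and Gla were below 5.22 in unstimulated wild-type samples, at 4.74 to 4.95 and 4.48 to 4.96. The 4 that fell at 24 h were Lipa, the acid lipase that frees cholesterol (by 1.10), Ctss, a protease used in antigen presentation (by 0.90), Ctsl, another cysteine protease (by 0.80), and Ctsd, the main aspartic protease (by 0.52). Ctsa, a carboxypeptidase that also shields other lysosomal enzymes, fell by 1.0 at 8 h and was at -0.15 at 24 h, not called. Glb1, the beta-galactosidase, fell by 0.59 at 8 h and Tpp1, a tripeptidyl peptidase, by 0.33, and neither was called at 24 h. The Tpp1 call at 8 h was lost without wild-type replicate 1, 3 or 4 unstimulated or 3 or 4 at 8 h (adjusted p from 0.0641 to 0.107). Hexa, a hexosaminidase chain, and Asah1, the acid ceramidase, were called at neither time in wild type.

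Of the membrane proteins in wild type, Scarb2, which carries glucocerebrosidase to lysosomes, and Mcoln1, a calcium channel, fell at 24 h by 0.84 and 0.87. The large membrane glycoprotein Lamp1 differed by 0.07 at 8 h and by 0.00 at 24 h. Lamp2, its relative that serves in chaperone-mediated autophagy, rose by 0.72 (SE 0.11) at 8 h and stood at 0.15 at 24 h, not called. The soluble proteins fell at both times, Psap, the precursor of the saposins that help lipid hydrolases, by 1.57 and 1.40 and Grn, progranulin, by 1.18 and 0.91.

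In Raptor-deficient cells 3 genes were higher and 18 lower at 8 h against unstimulated Raptor-deficient cells. Of all genes 32.8% were called at 8 h, 16% higher and 16.8% lower. At 24 h 11 of the 34 genes were higher and 11 lower (39.1% of all genes called, 21.6% higher and 17.5% lower). Of the 13 pump genes 0 were called higher by limma at 8 h (1 at an unadjusted p under 0.05) and 4 were lower, where wild type gave 4 higher and 3 lower. At 24 h the V1 genes gave 3 higher and 1 lower, as many as in wild type, with Atp6v1a at 0.86 (SE 0.11), Atp6v1h at 0.65 (SE 0.15), Atp6v1f at 0.43 (SE 0.16) and Atp6v1d at -1.41 (SE 0.11). Among hydrolases Gusb (1.20), Ctsz (1.18), Naglu (1.02), Gaa (0.99), Gla (0.81) and Ctsb (0.23) rose by 24 h, and Lipa (by 0.96), Ctsl (by 0.67) and Ctsd (by 0.31) fell. The Atp6v1f call was lost without unstimulated replicate 2, 3 or 4 or 24 h replicate 3 or 4, and that of Ctsb without unstimulated replicate 2 or 4 or 24 h replicate 3 or 4. The Ctsb probe sets also disagreed at 24 h, with 2 of 4 called higher and 2 called lower, and their mean gave -0.06. Lamp1, which was not called in wild type, rose by 0.28 at 8 h and by 0.35 at 24 h. Counts set side by side in this way do not test a difference between genotypes, which the comparisons below do.

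At 24 h, 14 of the 34 genes differed between Raptor-deficient and wild-type cells, 11 higher and 3 lower without Raptor. That is 41.2%, where 21.5% of all genes tested were called. Of all genes 8.35% were higher and 13.1% lower. With genes below the median of all values in every group left out, 3670 were called from the smaller set, against 3671 here. The share called among the brighter genes is therefore above 21.5%. The median difference was 0.19 over the 34 genes and 0.01 over all genes. Subtracting each array's median gave 7 higher and 5 lower, and moved the share of higher among all called genes from 38.9% to 27.3%. By class, 4 pump genes were higher and 1 lower of 13, 3 hydrolases were higher and 2 lower of 15, 3 of 4 membrane proteins were higher, and 1 of the 2 soluble proteins was higher. The medians were 0.16 for the pump, 0.03 for the hydrolases and 0.43 for the membrane proteins. The plot of genotype differences gives all 34 genes.

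**Figure D2:**
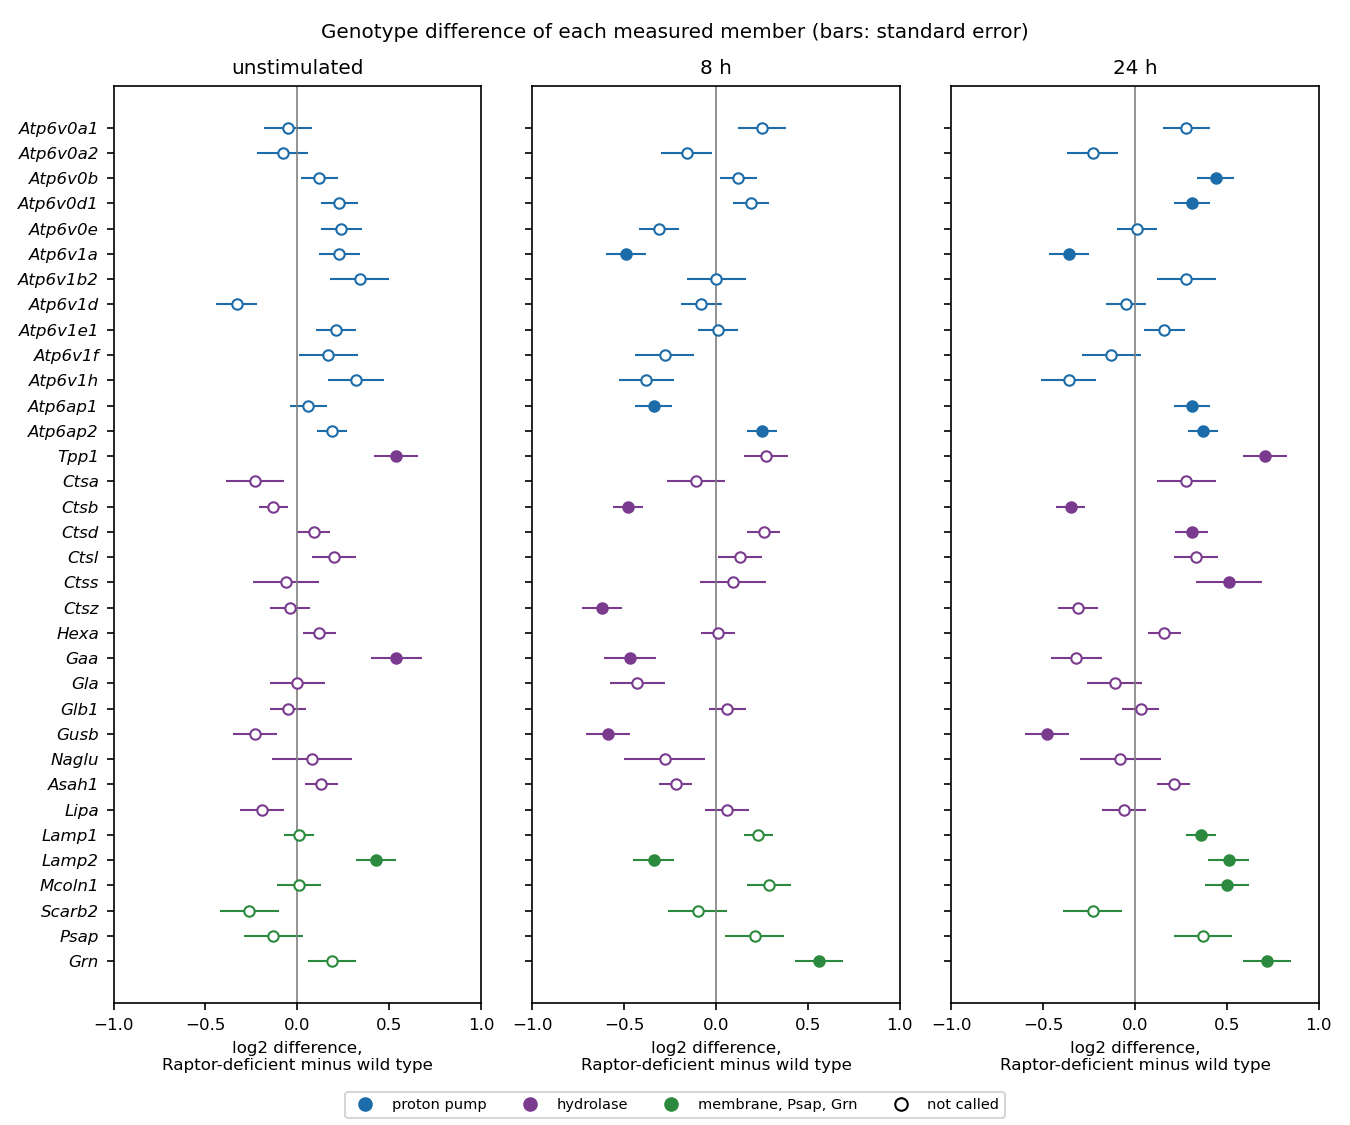
Log2 difference between Raptor-deficient and wild-type means (4 samples each) for the 34 genes in unstimulated cells, at 8 h and at 24 h, with bars for the standard error. Filled points passed limma's adjusted p under 0.05 over all genes, 3 in unstimulated cells, 9 at 8 h and 14 at 24 h. Grn, Tpp1, Lamp2, Ctss and Mcoln1 lie at or above 0.50 at 24 h and Gusb lies lowest at -0.48.

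Within the pump at 24 h, the higher genes were in the V0 sector and among the accessory proteins, and the lower gene was the catalytic subunit. Atp6v0b measured 8.77, 8.92, 8.77 and 8.67 in wild type and 9.20, 9.25, 9.26 and 9.16 without Raptor, with no overlap, a difference of 0.44 ± 0.10 (SE, n = 4 per group; limma adjusted p = 0.00199). Atp6ap2 measured 11.20, 11.27, 11.18 and 11.07 against 11.59, 11.60, 11.48 and 11.52, also apart, a difference of 0.37 ± 0.08 (limma adjusted p = 0.00112). For each of these genes 2 of 3 probe sets were called higher. Atp6v0d1 was at 7.51, 7.51, 7.56 and 7.52 in wild type and 7.74, 7.73, 8.05 and 7.81 without Raptor, a difference of 0.31 ± 0.10 (limma adjusted p = 0.0216). Without Raptor-deficient replicate 3, which was the highest, its adjusted p was 0.101. Atp6ap1 was at 7.42, 7.03, 7.32 and 7.24 against 7.70, 7.33, 7.69 and 7.5, groups that overlapped, with a difference of 0.31 ± 0.10 (limma adjusted p = 0.0274). Its call was lost on leaving out wild-type replicate 2 or 4 or Raptor-deficient replicate 1 or 3, with adjusted p from 0.0575 to 0.129. Atp6v0d1 and Atp6ap1 were also not called when array medians were subtracted (adjusted p of 0.0865 and 0.0863), and Atp6ap1 was not called without replicate 1 of both groups, the arrays with liver RNA (0.0556).

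Atp6v1a was lower without Raptor at 24 h, at 8.00, 7.63, 7.89 and 7.99 against 8.18, 8.16, 8.34 and 8.26 in wild type. The groups did not overlap and the difference was -0.36 ± 0.11 (limma adjusted p = 0.0173), which was not called without wild-type replicate 3 (0.0607) or Raptor-deficient replicate 2 (0.0924). Atp6v1h had the same size of difference, -0.36 (SE 0.15), with an adjusted p of 0.108. The 6 V1 genes together had a median of -0.09 and the 5 V0 genes 0.28. The other pump genes, Atp6v0a1, Atp6v0a2, Atp6v0e, Atp6v1b2, Atp6v1d, Atp6v1e1 and Atp6v1f, differed by -0.23 to 0.28 and were not called.

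Of the hydrolases at 24 h, Tpp1 differed most. It was at 7.79, 7.97, 7.92 and 8.17 in wild type and 8.82, 8.56, 8.71 and 8.58 without Raptor, a 1.63-fold difference (0.71 ± 0.12 log2; limma adjusted p = 9.7e-05) with no overlap. The other Tpp1 probe set differed by 0.29 and was not called (adjusted p = 0.136 over all probe sets). Ctsd lay between 8.59 and 8.64 in the 4 wild-type samples and at 9.0, 8.80, 8.93 and 8.92 without Raptor, a difference of 0.31 ± 0.09 (limma adjusted p = 0.016; 0.056 without Raptor-deficient replicate 1 and 0.0518 after subtracting array medians). Ctss was at 9.26, 9.16, 9.18 and 9.08 against 9.80, 9.65, 9.67 and 9.59, a difference of 0.51 ± 0.18. Although its groups did not overlap, its adjusted p of 0.0434 rose to between 0.0553 and 0.108 on leaving out any of the 8 arrays at 24 h, and to 0.0935 after subtracting array medians. Without replicate 1 of both groups, the arrays with liver RNA, neither Ctsd (adjusted p = 0.0951) nor Ctss (adjusted p = 0.121) was called.

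Gusb and Ctsb were lower without Raptor at 24 h. Gusb was at 7.47, 7.40, 7.52 and 7.34 against 7.77, 7.81, 8.05 and 8.01 in wild type, a difference of -0.48 ± 0.12 (limma adjusted p = 0.00317), and its other probe set was lower by 0.65 and called as well. Ctsb was at 9.08, 8.90, 9.18 and 9.23 against 9.39, 9.42, 9.52 and 9.49, a difference of -0.35 ± 0.08 (limma adjusted p = 0.00195). Neither gene's groups overlapped, and of the other 3 Ctsb probe sets 1 was called lower and the rest were at -0.27 and 0.15. Ctsz (-0.31, adjusted p = 0.0532) and Gaa (-0.32, adjusted p = 0.105) were not called by the probe sets used here, although the other 2 probe sets of Ctsz were called lower, by 0.55 and 0.38.

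The membrane proteins Lamp1, Lamp2 and Mcoln1 were all higher without Raptor at 24 h. Lamp1 was at 9.81, 9.85, 9.94 and 9.88 in wild type and 10.28, 10.23, 10.18 and 10.22 without Raptor (0.36 ± 0.08; limma adjusted p = 0.00153). Lamp2 was at 7.60, 7.35, 7.66 and 7.67 against 8.16, 7.99, 8.12 and 8.07 (0.51 ± 0.11; limma adjusted p = 0.000918), and all 3 of its probe sets were called higher. Mcoln1 was at 6.57, 6.48, 6.82 and 6.64 against 7.09, 7.15, 7.09 and 7.19 (0.50 ± 0.12; limma adjusted p = 0.00234), with 2 of 3 probe sets called higher. In none of the 3 did the groups overlap. Scarb2 stood at -0.23 (SE 0.16) and was not called. Grn, the soluble progranulin, was at 7.74, 7.97, 7.57 and 7.56 in wild type and 8.72, 8.36, 8.32 and 8.33 without Raptor, a 1.65-fold difference (0.72 ± 0.13 log2; limma adjusted p = 0.000122) with no overlap. Its other probe set gave 0.44, not called (adjusted p = 0.0757). Psap stood at 0.37 (SE 0.16; adjusted p = 0.125).

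**Figure D3:**
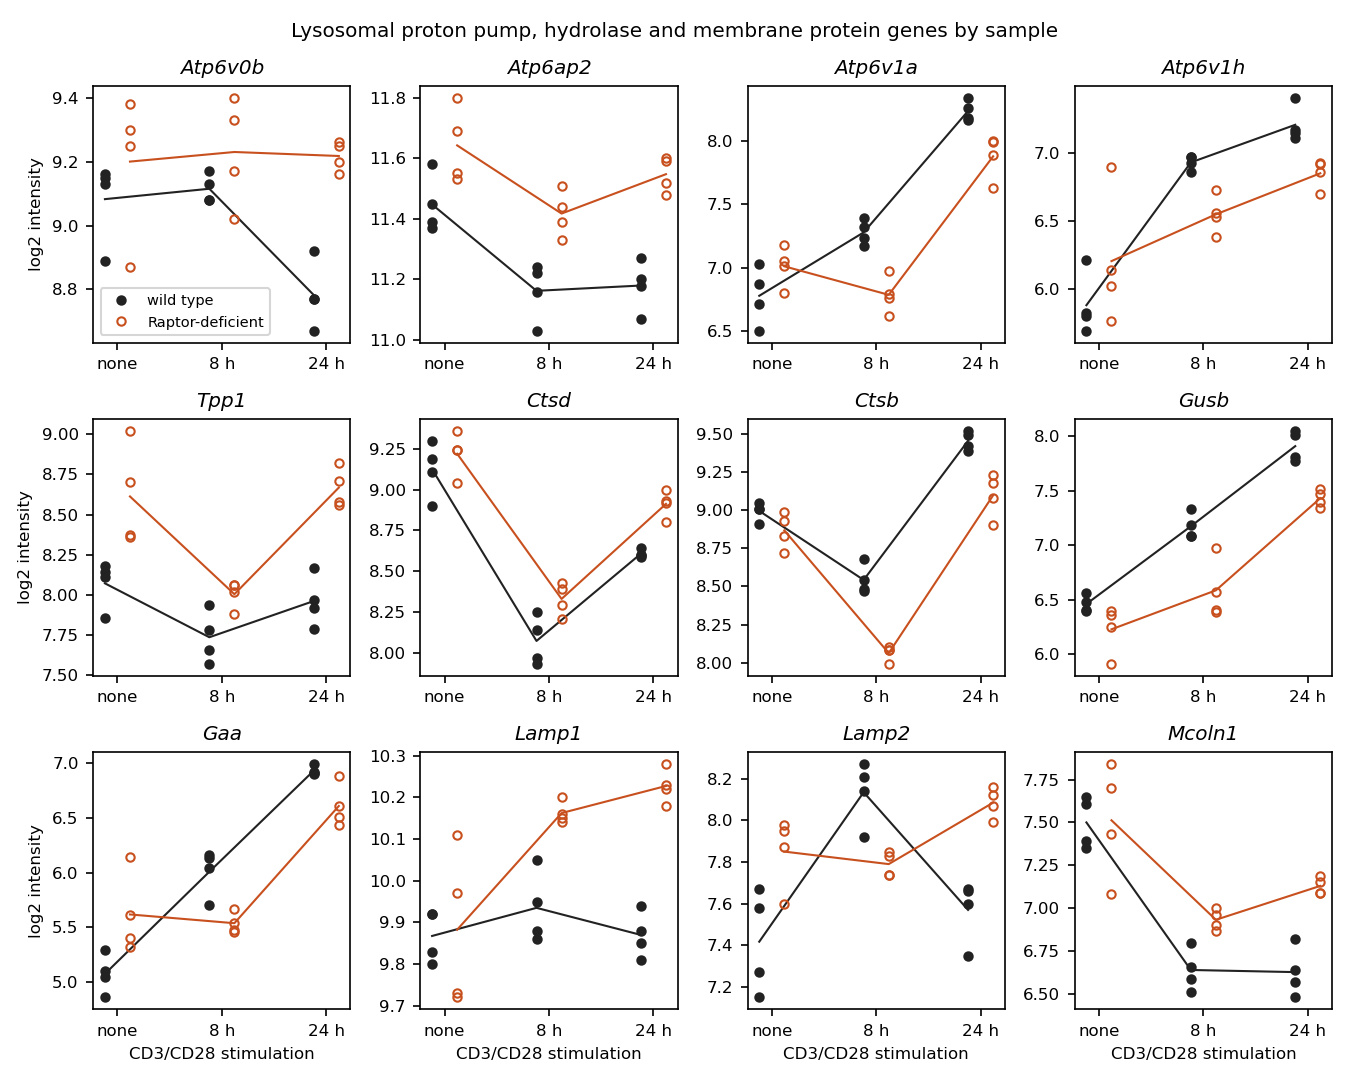
Log2 intensity (y axis) in every sample for 12 of the genes, unstimulated, at 8 h and at 24 h (x axis), with filled black points for wild type, open orange points for Raptor-deficient cells and lines through the means of 4 samples. Lamp1, Mcoln1, Tpp1, Atp6v0b and Atp6ap2 are apart at 24 h with Raptor-deficient cells higher, and Atp6v1a, Ctsb and Gusb with wild type higher.

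The promoter motifs were counted by call at 24 h. The core was in 5 of 11 genes that were higher without Raptor (45.5%), in 1 of 2 that were lower and had a window, and in 7 of 16 that were not called (43.8%). The longer form, GTCACGTG or CACGTGAC, was in 5 of the 11 (45.5%), 0 of the 2 and 4 of the 16 (25%). In the sequences shown above, Lamp1, Mcoln1, Atp6v0b and Ctsd were higher at 24 h and Atp6v1a lower, all with the core, and Grn was higher without it. Gaa, also shown with the core, was not called at 24 h. The other gene with the core that was higher at 24 h was Atp6v0d1, 3 bases before the start. These counts are a description and were not tested.

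At 8 h, 9 of the 34 genes differed between the genotypes, 2 higher and 7 lower without Raptor (12.9% of all genes were called, 4.14% higher and 8.77% lower). The median was -0.04 for the 34 genes and 0.01 for all genes. Subtracting array medians gave 1 higher and 9 lower and moved the share of higher among all called genes from 32.0% to 21.7%. The count was 14 without Raptor-deficient unstimulated replicate 1, an array that enters this comparison only through the shared estimate of spread. Of 6 T cell markers 2 were also lower without Raptor at 8 h (median -0.34), with summed linear intensities of 5580 to 6270 against 6580 to 7600 in wild type, and their part in the lower values was not tested. Among pump genes 1 was higher and 2 were lower of 13, and among hydrolases limma called 0 higher (2 at an unadjusted p under 0.05) and 4 lower of 15.

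Atp6v1a was already lower at 8 h, at 6.97, 6.76, 6.62 and 6.79 against 7.32, 7.23, 7.17 and 7.39 in wild type, a difference of -0.49 ± 0.11 (limma adjusted p = 0.00248), and both of its probe sets were called. Atp6ap1 was lower at 8 h, at 7.43, 7.45, 7.33 and 7.45 against 7.82, 7.87, 7.61 and 7.72 (-0.34 ± 0.10; limma adjusted p = 0.0214), the opposite of its direction at 24 h. Atp6ap2 was higher, at 11.51, 11.39, 11.33 and 11.44 against 11.24, 11.22, 11.03 and 11.16 (0.25 ± 0.08; limma adjusted p = 0.0349). None of these groups overlapped. The Atp6ap1 call was lost without wild-type replicate 1 or 2 or Raptor-deficient replicate 3 (adjusted p from 0.0532 to 0.0797). That of Atp6ap2 was lost without wild-type replicate 3 or 4 or Raptor-deficient replicate 1, 2 or 4 (0.0565 to 0.136), after subtracting array medians (0.0929) and with only the 8 h groups in the fit (0.0564). The other 2 Atp6ap2 probe sets differed by 0.19 and -0.09 at 8 h, and the mean of all 3 by 0.12 (adjusted p = 0.308).

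The 4 hydrolases that were lower without Raptor at 8 h were Ctsz, Gusb, Ctsb and Gaa. Ctsz was at 8.25, 7.88, 8.31 and 8.12 against 8.60, 8.78, 8.89 and 8.77 (-0.62 ± 0.11; limma adjusted p = 0.000458), with all 3 probe sets called. Gusb was at 6.39, 6.57, 6.98 and 6.41 against 7.19, 7.33, 7.09 and 7.09 (-0.59 ± 0.12; limma adjusted p = 0.000869), with both probe sets called. Ctsb was at 7.99, 8.10, 8.08 and 8.08 against 8.68, 8.54, 8.48 and 8.47 (-0.48 ± 0.08; limma adjusted p = 0.000154), with 3 of 4 probe sets called. All 3 pairs of groups were apart. Gaa was at 5.54, 5.46, 5.48 and 5.67 against 5.70, 6.16, 6.13 and 6.04 (-0.47 ± 0.14; limma adjusted p = 0.0218). Its highest Raptor-deficient sample, at 5.67, lay just below its lowest wild-type sample, at 5.70. Its call was lost without wild-type replicate 2, 3 or 4 or Raptor-deficient replicate 2 or 3 (adjusted p from 0.0535 to 0.0797).

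Lamp2 was lower without Raptor at 8 h, at 7.85, 7.83, 7.74 and 7.74 against 8.27, 7.92, 8.21 and 8.14 in wild type (-0.34 ± 0.11; limma adjusted p = 0.0356). The groups did not overlap, but the other 2 probe sets differed by only -0.10 and -0.19, and the call was lost without any 1 of the 8 arrays at 8 h except wild-type replicate 2 (adjusted p from 0.0518 to 0.103). Grn was higher, at 8.38, 7.81, 7.70 and 8.10 against 7.39, 7.31, 7.47 and 7.57 (0.56 ± 0.13; limma adjusted p = 0.00298), and both of its probe sets were called. Lamp1 (0.23, adjusted p = 0.0646), Ctsd (0.26, adjusted p = 0.0655), Tpp1 (0.27, adjusted p = 0.173) and Mcoln1 (0.29, adjusted p = 0.107), all higher at 24 h, were not called at 8 h.

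In unstimulated cells 3 of the 34 genes were called, all higher without Raptor (8.82%, against 1.94% of all genes, of which 0.702% were higher and 1.24% lower). Tpp1 was at 8.36, 9.02, 8.37 and 8.70 against 8.18, 7.86, 8.14 and 8.11 in wild type (0.54 ± 0.12; limma adjusted p = 0.0168). Gaa was at 5.40, 6.14, 5.32 and 5.61 against 5.05, 5.29, 5.10 and 4.86 (0.54 ± 0.14; limma adjusted p = 0.0357), levels close to the median of all values. For Tpp1 and Gaa the groups did not overlap. Lamp2 was at 7.60, 7.87, 7.98 and 7.95 against 7.15, 7.58, 7.27 and 7.67 (0.43 ± 0.11; limma adjusted p = 0.035), and its groups overlapped. Of the 13 pump genes limma called 0 (7 at an unadjusted p under 0.05, 6 of them higher), the smallest adjusted p among them being that of Atp6v1d (-0.33, adjusted p = 0.128), and 10 of the 13 had a difference above 0, with a median of 0.19. Raptor-deficient replicate 1, the array of widest spread, was highest of its group for Atp6v1b2 (8.95 against 7.68 to 7.78) and Atp6v1f (9.71 against 8.40 to 8.74). It was also highest for Atp6v1h (6.90 against 5.76 to 6.14), Atp6v0e and Atp6v0d1. It was lowest for Atp6v0a2, Atp6v0b, Atp6v1a, Atp6v1d, Atp6v1e1 and Atp6ap2.

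All 3 calls were lost without Raptor-deficient replicate 2, which had the highest Tpp1 and Gaa values, and when only the unstimulated groups entered the fit (adjusted p from 0.25 to 0.336). Averaged over its probe sets, Tpp1 had an adjusted p of 0.061. The Tpp1 call was also lost without wild-type replicate 2, that of Gaa without wild-type replicate 1, 3 or 4 or Raptor-deficient replicate 4, and that of Lamp2 without wild-type replicate 1 or 3 or Raptor-deficient replicate 3 or 4 (adjusted p over these single samples from 0.0535 to 0.147).

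The genotype differences can be set beside the wild-type responses at the same time, with which they share the stimulated wild-type samples, so the values below are not a relation. At 8 h the wild-type response and the genotype difference were 0.50 and -0.49 for Atp6v1a, 1.29 and -0.62 for Ctsz, 0.71 and -0.59 for Gusb, -0.45 and -0.48 for Ctsb, and -1.18 and 0.56 for Grn. At 24 h they were -0.91 and 0.72 for Grn, -0.87 and 0.50 for Mcoln1, -0.11 and 0.71 for Tpp1, 0.00 and 0.36 for Lamp1, and 1.45 and -0.48 for Gusb.

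The difference between genotypes in the response to stimulation was tested directly. At 8 h, 5 of 34 genes responded differently, all lower in the Raptor-deficient response by limma (0 called higher, 1 at an unadjusted p under 0.05; 6.29% of all genes called, 1.94% higher and 4.36% lower). Gaa rose by 0.93 in wild type and stood at -0.08 without Raptor, a difference of responses of -1.01 ± 0.19 (limma adjusted p = 0.00203). Lamp2 rose by 0.72 in wild type and stood at -0.06 (difference -0.78 ± 0.15; limma adjusted p = 0.00281), and all 3 of its probe sets were called for this difference. Atp6v1a rose by 0.50 and stood at -0.23 (difference -0.73 ± 0.15; limma adjusted p = 0.00478), with both probe sets called. For Gaa and Lamp2 the difference holds both the higher unstimulated level and the lower 8 h level of Raptor-deficient cells.

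Ctsz rose in both genotypes at 8 h, by 1.29 in wild type and 0.72 without Raptor (difference -0.58 ± 0.16; limma adjusted p = 0.0311). Atp6v0e was at 8.16, 8.03, 8.16 and 8.23 in unstimulated and 8.33, 8.59, 8.52 and 8.43 in 8 h wild-type samples, and at 8.80, 8.41, 8.09 and 8.22 and then 8.09, 8.22, 8.24 and 8.08 without Raptor. It rose by 0.32 in wild type (not called without wild-type replicate 2 at either time, adjusted p of 0.0528 and 0.0573), and the difference of responses was -0.55 ± 0.15 (limma adjusted p = 0.0271). Unstimulated Raptor-deficient replicate 1 was the highest of these samples. Leaving out single arrays ended the call of Ctsz for 9 of them and that of Atp6v0e for 5, with adjusted p between 0.0537 and 0.0773: for Ctsz wild-type replicates 2 and 4 and Raptor-deficient replicates 2 and 4 unstimulated, and wild-type replicates 2, 3 and 4 and Raptor-deficient replicates 2 and 4 at 8 h; for Atp6v0e unstimulated wild-type replicate 2, and wild-type replicates 2 and 3 and Raptor-deficient replicates 1 and 4 at 8 h. Without wild-type replicate 2 or 3 or Raptor-deficient replicate 4 at 8 h the count of 5 genes was 3.

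At 24 h, 5 of 34 genes responded differently, 2 higher and 3 lower in the Raptor-deficient response (13.3% of all genes called, 5.26% higher and 8.01% lower). Gaa was at 6.90, 6.99, 6.92 and 6.91 in wild type and 6.51, 6.88, 6.61 and 6.43 without Raptor at 24 h, and rose by 1.86 and 0.99 (difference -0.86 ± 0.19; limma adjusted p = 0.00309). Atp6v1a rose by 1.46 and 0.86 (difference -0.60 ± 0.15; limma adjusted p = 0.00964). Atp6v1h without Raptor was at 6.90, 6.14, 5.76 and 6.02 unstimulated and 6.86, 6.70, 6.92 and 6.93 at 24 h, and rose by 0.65 against 1.33 in wild type (difference -0.68 ± 0.22; limma adjusted p = 0.0383). Its unstimulated replicate 1 was as high as its 24 h samples. Lamp1 was at 9.92, 9.83, 9.92 and 9.80 in unstimulated wild-type samples and 9.73, 9.72, 10.11 and 9.97 in unstimulated Raptor-deficient ones, and its difference of responses was 0.35 ± 0.11 (limma adjusted p = 0.0421). Grn was at 8.65, 8.43, 8.70 and 8.68 and at 8.70, 8.93, 8.67 and 8.92 unstimulated, and fell by 0.91 in wild type and by 0.37 without Raptor, the latter not called without any 1 of unstimulated replicates 2 and 4 and 24 h replicates 2, 3 and 4 (difference 0.53 ± 0.18; limma adjusted p = 0.0495).

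Of these 5 differences at 24 h, that of Gaa was called under all 34 alternative settings. It includes the higher unstimulated Gaa level of Raptor-deficient cells (0.54), whose own call was lost for 5 single arrays. At 24 h itself the Gaa means were 6.93 in wild type and 6.61 without Raptor, a difference that was not called. Those of Atp6v1h, Lamp1 and Grn were lost on leaving out any of 9, 11 and 16 single arrays (adjusted p from 0.0507 to 0.124). For Atp6v1h these were unstimulated wild-type replicates 1, 3 and 4 and Raptor-deficient replicate 1, and at 24 h wild-type replicates 2, 3 and 4 and Raptor-deficient replicates 1 and 2. For Lamp1 they were unstimulated wild-type replicates 1, 2 and 3 and Raptor-deficient replicates 1 and 2, and at 24 h replicates 1, 2 and 4 of both genotypes. For Grn they were unstimulated wild-type replicates 1, 3 and 4 and Raptor-deficient replicates 1 and 3, all 4 wild-type and Raptor-deficient replicate 4 at 8 h, and at 24 h wild-type replicates 1, 3 and 4 and Raptor-deficient replicates 1, 2 and 4. The count of 5 fell to 2 or 3 without replicate 1 or 3 of the unstimulated wild type, replicate 1, 2 or 4 of the 24 h wild type, or replicate 1, 2 or 4 of the 24 h Raptor-deficient group.

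The class medians by sample set the pump beside the hydrolases and the membrane proteins. Relative to the unstimulated wild-type means, the pump median lay between -0.31 and 0.10 in wild-type samples at 24 h and between 0.17 and 0.39 in Raptor-deficient ones, while for the hydrolases the ranges were -0.19 to 0.04 and -0.04 to 0.25. For the 4 membrane proteins they were -0.50 to -0.31 and -0.05 to 0.02. At 8 h the hydrolase medians were low in both genotypes, -0.50 to -0.20 and -0.40 to -0.27, and the pump medians near 0, 0.04 to 0.12 and -0.06 to 0.09. These medians are descriptions with no test, since they follow from which genes each class holds.

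**Figure D4:**
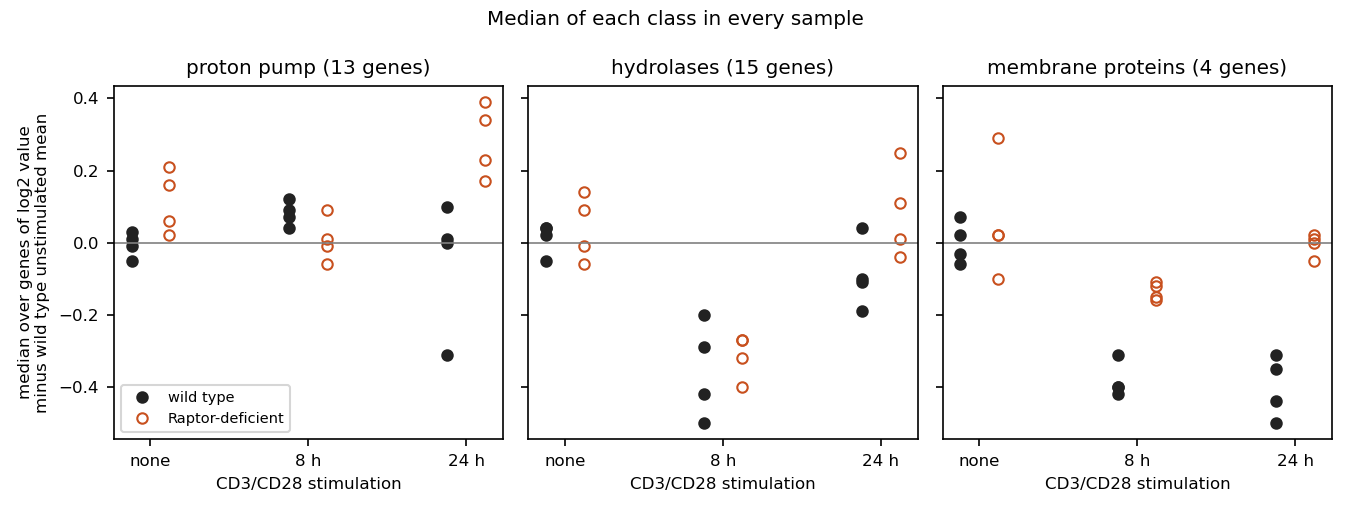
Median over the genes of a class of the log2 value minus the wild-type unstimulated mean (y axis), for each of the 24 samples, by stimulation (x axis) and genotype (filled black, wild type; open orange, Raptor-deficient). At 24 h the pump and the membrane protein medians of the 2 genotypes do not overlap and those of the hydrolases do.

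A further list of 55 lysosomal genes, 47 of them measured, was compared in the same fit. Between genotypes limma called 0 in unstimulated cells (9 at an unadjusted p under 0.05), 4 at 8 h, all lower without Raptor, and 13 at 24 h, 5 higher and 8 lower. The medians were 0.01, 0.06 and -0.07. At 8 h the 4 were Ctsc, a protease that activates granule enzymes (-0.78, adjusted p = 7.41e-05), M6pr, a receptor that delivers hydrolases (-0.30, adjusted p = 0.00872), Gnptab, which makes the mannose 6-phosphate tag for that receptor (-0.38, adjusted p = 0.0147), and Plbd2 (-0.38, adjusted p = 0.0323). At 24 h those with the smallest p were Gm2a, the activator for ganglioside breakdown (-0.84, adjusted p = 9.75e-05), Npc2, which hands over cholesterol (0.54, adjusted p = 0.000908), Mfsd8 (-0.80, adjusted p = 0.00256) and Laptm5, a membrane protein of immune cells (0.44, adjusted p = 0.00284). The shares called were 8.51% at 8 h and 27.7% at 24 h, against 12.9% and 21.5% of all genes. In unstimulated cells 1.94% of all genes were called.

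In wild type, 4 of these 47 genes were higher and 19 lower at 8 h, and 11 were higher and 21 lower at 24 h. The shares called were 48.9% and 68.1%, against 39.7% and 49.7% of all genes tested. M6pr rose by 1.53 at 8 h and by 1.0 at 24 h, Plbd2 by 1.39 at 8 h, Ctsc by 1.42 and Aga by 1.19 at 24 h, while Gm2a and Acp2, an acid phosphatase, fell by 1.70 and 1.19 at 8 h and Ctso, a cysteine protease, by 1.60 at 24 h. From 8 h to 24 h 13 were higher and 5 lower (38.3% called, against 28.3% of all genes). In Raptor-deficient cells 4 were higher and 19 lower at 8 h, and 9 higher and 17 lower at 24 h. These shares were 48.9% and 55.3%, against 32.8% and 39.1% of all genes. The response at 8 h differed for Ctsc (-0.89, adjusted p = 0.00281) and M6pr (-0.37, adjusted p = 0.0388), and that at 24 h for Scpep1 (-0.94, adjusted p = 0.0141), Mfsd8 (-0.96, adjusted p = 0.0153), Tmem192 (-0.54, adjusted p = 0.0191) and Laptm5 (0.45, adjusted p = 0.0443). For these differences 4.26% and 8.51% of the 47 genes were called, below the 6.29% and 13.3% of all genes.

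Tfeb, Tfe3 and Mitf, which encode factors that bind this motif, were not called between genotypes at any of the 3 times. At 24 h Tfeb was at 6.42 ± 0.13 (SD, n = 4) in wild type and 6.16 ± 0.19 without Raptor (-0.27, limma adjusted p = 0.222), and Tfe3 at 7.57 ± 0.05 and 7.57 ± 0.07. Mitf, their relative, lay below the median of all values, between group means of 3.61 and 4.22. Tfeb fell in both genotypes at 8 h, by 0.67 and 0.63. Flcn, folliculin, which lets mTORC1 act on TFEB and TFE3, was higher without Raptor at 24 h, at 6.91 ± 0.12 against 6.08 ± 0.18 (0.83, limma adjusted p = 0.000188), and had adjusted p of 0.0568 unstimulated and 0.17 at 8 h. RNA levels say nothing of where these proteins are in the cell.

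Other cell types also express lysosomal genes, Ctss and Grn among them, so their markers are given here. Of 14 myeloid markers 2 were higher without Raptor at 24 h, 2 at 8 h and 1 unstimulated, with summed linear intensities of 273 to 292 in wild-type and 287 to 333 in Raptor-deficient samples at 24 h, 281 to 303 and 354 to 423 at 8 h, and 294 to 318 and 332 to 419 unstimulated. Of the 14, 11 had group means below the median of all values in all 6 groups, Lyz2, Itgam and Adgre1 among them. Csf1r, Fcer1g and S100a9 had group means above it in all 6. Fcer1g was at 5.26 to 5.32 in wild-type and 5.47 to 5.84 in Raptor-deficient samples at 24 h, and overlapped at the other times. Lyz2 was at 3.09 to 3.52 and 3.49 to 3.85 at 24 h. Csf1r lay between 5.27 and 5.74, and its genotypes overlapped at each time. S100a9 was at 5.46 to 5.80 in wild-type and 5.98 to 7.06 in Raptor-deficient samples at 8 h. Unstimulated, S100a9 was at 5.30 to 5.56 and 5.81 to 6.95. S100a8 was at 4.01 to 4.30 and 4.71 to 5.62 at 8 h. Of 9 B cell markers 3 were higher without Raptor at 24 h and 1 at 8 h, with sums of 320 to 422 against 451 to 795 at 24 h and 360 to 404 against 453 to 678 at 8 h, ranges that did not overlap, and 318 to 436 against 404 to 626 unstimulated. Ms4a1, H2-Ab1, Blnk and Ebf1 had group means below the median in all 6 groups. Cd79a, Cd74 and H2-Aa had group means above it in all 6. At 24 h Pax5 was at 4.47 to 4.84 in wild-type and 5.69 to 6.57 in Raptor-deficient samples. H2-Aa was then at 5.86 to 6.14 and 6.56 to 6.82. Of 5 NK cell markers 2 were higher at 24 h (median 0.31), with sums of 349 to 370 against 428 to 487, while unstimulated sums were 597 to 651 against 477 to 521. Of the 4 erythroid markers 2 were measured, with sums of 115 to 152 in wild-type and 157 to 439 in Raptor-deficient samples at 24 h. At 8 h these sums were 132 to 183 and 176 to 395, and unstimulated 88.3 to 155 and 89.6 to 388. The part of such cells in the higher Ctss, Grn and membrane protein values was not tested.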

How the data were processed

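RNA of 24 samples was hybridised to Affymetrix HT MG-430 PM arrays, 1 per sample. The deposited values are log2 intensities per probe set, made by the authors with RMA in Partek 6.5, per the submitters' processing notes, and they were used with no further normalization or filter on level. Of 45141 probe sets 28898 name a single gene, which gave 17097 genes, each represented by its probe set with the highest mean. limma 3.58.1 in R 4.3.3 was fitted to 6 group means (18 residual degrees of freedom), with 10 comparisons, two-sided p-values and Benjamini-Hochberg adjustment over all genes. SE is limma's standard error. Genes of the set are given sample by sample where they were called between genotypes or for a difference of responses, and from the further lysosomal list up to 4 called genes of smallest p per comparison are named. The genes and the lists used beside them were chosen with earlier results of these data known. On simulated data for the 24 h genotype comparison with 17097 genes, the test recovered 79.1% of 67 genes given a 1.5-fold change and 100% of 67 given a 2-fold change, and 8 unchanged genes passed. The simulation drew independent normal noise with the same SD in all arrays for each gene. It also changed far fewer genes than were called here. Its figures may therefore not hold for these arrays, which differed in spread. Alternatives were another choice of probe set, scaling, filter, variance model, array weights, a replicate block, only the compared groups, and leaving out libraries. Promoters are from RefSeq, build GRCm38.p6. The number of arrays limits the precision.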

Additional observations from a re-analysis of the deposited data

Results flagged for a closer look

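In 9 of 204 sets of 4 samples (34 genes in 6 groups), 1 sample lay far from the other 3, beyond Dixon's critical value for 4 samples. Chance alone gives about 1 such set in 20. In unstimulated wild type, Atp6v0b was at 8.89 in replicate 2 against 9.13 to 9.16. In unstimulated Raptor-deficient cells, Atp6v1b2 was at 8.95 in replicate 1 against 7.68 to 7.78, and Naglu was at 5.95 in replicate 2 against 4.57 to 4.61. These are among the arrays with the widest residual spread. At 8 h without Raptor, Ctsb was at 7.99 in replicate 1 against 8.08 to 8.10. At 24 h, Asah1 was at 7.32 in wild-type replicate 1 against 7.40 to 7.41. In the Raptor-deficient samples at 24 h, Atp6v0a2 was at 7.34 in replicate 1 against 6.88 to 6.94, and Grn was at 8.72 in the same replicate against 8.32 to 8.36. That replicate is 1 of the 2 arrays with liver RNA, whose part in these values was not tested. In that group Ctsz was at 8.77 in replicate 3 against 8.55 in the others, and Lipa at 7.86 in replicate 4 against 7.55 to 7.58.

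The response to stimulation differed between the genotypes for 10 pairs of gene and time, by limma's test of the difference. These are 5 of 34 genes at each time (14.7%), against 6.29% of all genes at 8 h and 13.3% at 24 h. The calls of Ctsz, Atp6v0e, Atp6v1h, Lamp1 and Grn were each lost on leaving out single arrays. At 8 h the differences, Raptor-deficient minus wild type, were -1.01 for Gaa, -0.78 for Lamp2, -0.73 for Atp6v1a, -0.58 for Ctsz and -0.55 for Atp6v0e. At 24 h they were -0.86 for Gaa, -0.68 for Atp6v1h, -0.60 for Atp6v1a, 0.35 for Lamp1 and 0.53 for Grn.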

How the results depend on the processing

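Over the 34 alternative settings, 5 single-gene values took the opposite sign where the value was called in the fit as described or in the alternative; sign changes of values called in neither are not counted. With the mean of all probe sets, the 24 h response of wild type was 0.69 for Atp6v0a1 and -0.05 for Ctsb, and that of Raptor-deficient cells was -0.32 for Tpp1 and -0.06 for Ctsb. Without replicate 1 of unstimulated Raptor-deficient cells the 8 h response of Atp6v1b2 was 0.20, and leaving out single libraries gave it -0.22 to 0.20. With only the compared groups in the fit, the unstimulated count of 3 was 0 and both counts of 5 different responses were 3. With both 24 h libraries numbered 1 left out, the unstimulated count was 1 and that of different 24 h responses was 2. Subtracting array medians gave 8 and 3 different responses at 8 h and 24 h, and the share of higher among all called genes went from 30.8% to 17.6% and from 39.6% to 25.1%; for the 24 h response of wild type it went from 51.2% to 62.7%. The 8 h genotype count of 9 was 16 with array weights and 14 without unstimulated Raptor-deficient libraries 2 and 3. The causes were not tested. Leaving out single libraries gave 0 to 3 genes unstimulated, 6 to 14 at 8 h and 11 to 17 at 24 h between genotypes. It gave 22 to 25, 24 to 25 and 12 to 16 for wild type at 8 h, at 24 h and between them, 18 to 24 and 17 to 23 for Raptor-deficient cells, and 3 to 7 and 2 to 5 for the different responses. The unstimulated count was 0 without Raptor-deficient replicate 2 and 1 without wild-type replicate 1 or 3 or Raptor-deficient replicate 4. Of the genotype calls, 5 at 8 h (Atp6v1a, Ctsb, Ctsz, Gusb and Grn) and 9 at 24 h (Atp6v0b, Atp6ap2, Tpp1, Ctsb, Gusb, Lamp1, Lamp2, Mcoln1 and Grn) were kept under all 34 settings. Nothing in the labels says what a replicate number stands for. Deviations of same-numbered samples correlated at -0.069 to 0.153 within a genotype (2 of 24 pairs over 0.1) and at -0.074 to 0.251 across genotypes (8 of 36 over 0.1). A sample correlated best with its own number in 62 of 120 cases, where 30 would be met with no link, a hint from the data that some numbers share something. With the replicate block the counts were 3, 9 and 14 between genotypes and 5 and 6 for the different responses. Atp6v0a1 and unstimulated Gla and Naglu, below the median of all values, are where a weak signal limits a difference most.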
